A study of Mus musculus with 6 samples.

Results

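Genes of mitosis and the spindle were followed in mouse regulatory T cells (Tregs) taken from colon tumours. The 35 members were chosen by name, as cyclins, kinases, checkpoint, kinetochore, motor and cytokinesis genes of dividing cells, and all 35 were measured, of 19494 genes on the array. Both fractions came from double-reporter mice (Foxp3-RFP x GPR15-GFP), in which red marks Tregs and green marks the gut homing receptor GPR15. All had colorectal cancer induced by AOM/DSS, that is the mutagen azoxymethane together with the colon irritant dextran sulfate sodium. Lamina propria lymphocytes were stained for CD4, and red cells were sorted into a GPR15-GFP+ and a GPR15-GFP- fraction, with 3 arrays each, titled with the numbers 1, 5 and 6 in both fractions. Ages, sexes, pooling and cell numbers were not given in the labels, and no sample of untreated mice or of non-Treg cells was part of the series.

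A cell enters mitosis when Cdk1 bound to a B-type cyclin becomes active. Chromosomes then condense, their kinetochores attach to spindle microtubules, and a checkpoint holds the anaphase-promoting complex (APC/C) until attachment is complete; the complex then marks cyclin B and securin for destruction, and the cell divides at the central spindle. Many of these genes are transcribed together late in the cell cycle, under the DREAM and MuvB complexes, which bind a short promoter element known as the cell cycle genes homology region (CHR), often with CCAAT boxes upstream for the factor NF-Y. In T cells the summed transcripts of this programme are widely read as a sign of proliferation.

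The CHR letters were looked for first, because they are what most of these genes share outside the array. RefSeq promoters (GRCm38.p6, from 250 bases before to 50 bases after the annotated start) were found for 28 of the 35 members. Searched on both strands, TTTGAA was present in 23 of these 28 (82.1%), against 5466 of 27025 genes with a promoter in the table (20.2%). CCAAT, a match of which can share at most an end base with a TTTGAA match, was present in 22 of 28 (78.6%) against 41.1% of all genes. Both occurred in 20 of 28 (71.4%) against 7.97% of all genes. A match is a run of letters and not a measured binding site. In 21 members TTTGAA lay within 50 bases of a start. Aligned on the element, with TTTGAA in capitals and 10 bases on each side, 8 promoters of members with different roles are shown, so that the shared core can be seen against flanks that differ:
Ccnb2: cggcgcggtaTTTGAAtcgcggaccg
Aurka: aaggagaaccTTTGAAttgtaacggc
Cdk1: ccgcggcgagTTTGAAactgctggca
Plk1: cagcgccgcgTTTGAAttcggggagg
Cenpa: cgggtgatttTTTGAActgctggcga
Kif23: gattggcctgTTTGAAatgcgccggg
Racgap1: ggtgcgtgatTTTGAAccggatctgg
Hmmr: ttgaggtaaaTTTGAAttcaggcgag
The windows lie at chr9:70421535-70421560 (minus strand) for Ccnb2, chr2:172370523-172370548 (minus) for Aurka, chr10:69352912-69352937 (minus) for Cdk1, chr7:122159455-122159480 (plus) for Plk1 and chr5:30666892-30666917 (plus) for Cenpa. Those of Kif23, Racgap1 and Hmmr lie at chr9:61946782-61946807, chr15:99651636-99651661 and chr11:40733414-40733439, all on the minus strand.

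The Ccnb2 promoter holds the full arrangement, and Ccnb2 is also the member with the largest difference between the fractions, so a longer stretch of it is shown, from base -100 to base 10 counted from the start (chr9:70421545-70421654, minus strand). Capitals mark 3 CCAAT boxes and the TTTGAA at its end:
Ccnb2 promoter: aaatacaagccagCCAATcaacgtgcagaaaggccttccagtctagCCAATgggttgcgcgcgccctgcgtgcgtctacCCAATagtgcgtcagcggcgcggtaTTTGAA
The CCAAT boxes begin at bases -87, -54 and -21, so each starts 33 bases from the next. The 5 members whose promoter window held no TTTGAA were Birc5, Bub1, Cenpe, Nuf2 and Nusap1.

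**Figure D1:**
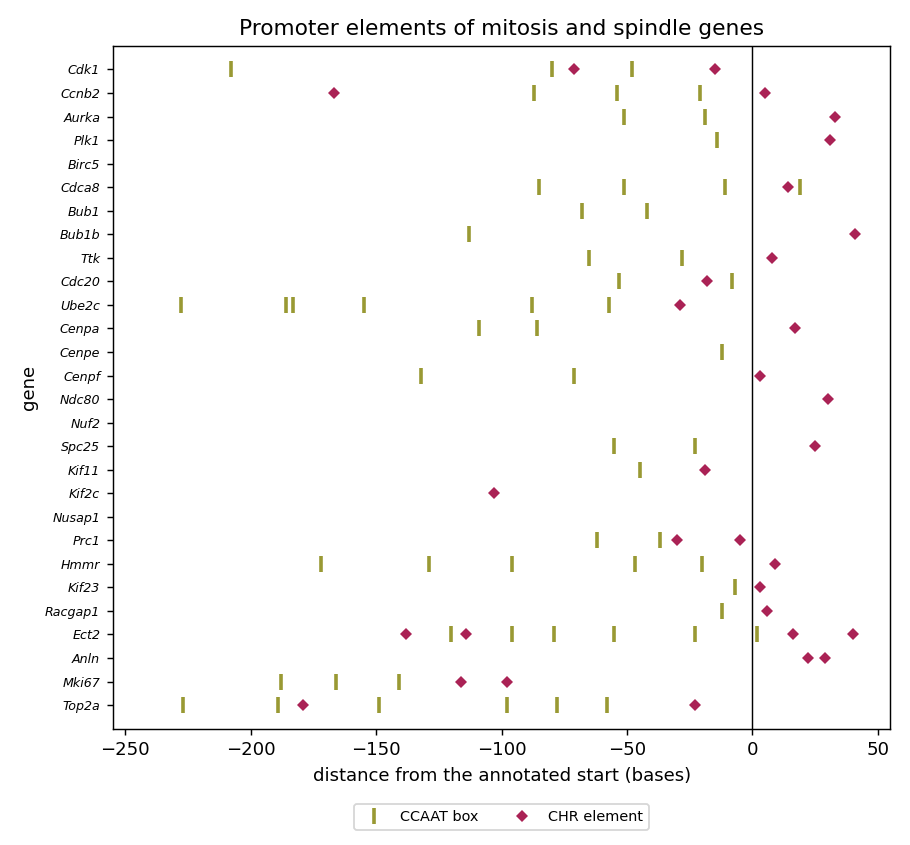
Positions of TTTGAA (diamonds, CHR element) and CCAAT (bars) on either strand in the RefSeq promoters of 28 members, as bases from the annotated start (x axis), 1 gene a row, with all promoters of a gene on its row. Most diamonds sit close to the start, within 50 bases for 21 members, and the CCAAT boxes mostly lie upstream of them.

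The fractions were compared to ask whether tumour Tregs that carry the GPR15 reporter differ in these transcripts from those that do not. A shift common to the mitosis genes was not tested as a set, and the members lay in both directions. Of 35 members, 13 lay above 0 and 22 below (62.9%, with 59.2% of all genes below 0), and their median difference was -0.12 against -0.06 over all genes, in log2 units of arrays labelled GPR15+ minus arrays labelled GPR15-. The cyclin Ccnb2, the survivin gene Birc5 and the kinase Aurka were lower on all 3 arrays labelled GPR15+ than on all 3 labelled GPR15-, and the microtubule regulator Stmn1 was higher within each title number. No member passed the threshold of 0.05 (limma p adjusted over all genes, from 0.773 to 0.997), nor did any of the 19494 genes (percent called 0 higher and 0 lower, smallest adjusted p 0.540). In sorted bulk samples fewer dividing cells and less RNA per dividing cell cannot be told apart.

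At an unadjusted p under 0.05 limma gave 3 of 35 members lower (8.57%, background 3.44%) and 0 higher (background 2.79%). The background split moves with scaling: 544 genes higher and 670 lower as deposited became 777 and 397 once arrays were centred on their medians. The fractions did not overlap in 4 members, all lower (11.4%, background 9.17%), and in 0 members higher (background 4.12%). Below 0 in all 3 title numbers were 7 members (20%, background 23.6%), and above 0 in all 3 were 2 (5.71%, background 13.4%). The members' shares were above the background for lower values at an unadjusted p under 0.05, below it for all counts of higher values, and near it for the other counts of lower values; each rests on few genes. Without GPR15+ number 1 the counts over all genes were 1860 higher (9.54%) and 2491 lower (12.8%), and those of the members were 0 and 5 (14.3%). With the title number as a block 3 members were lower (background 6.23%) and 1 higher, Stmn1 (background 6.14%), at an unadjusted p under 0.05, and 0 passed adjusted over all genes (background 0, either direction).

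Before the members are taken by role, 3 facts of the arrays bear on every direction. Gpr15, the gene whose reporter defines the fractions, lay at 8.51, 9.12 and 8.70 on the arrays labelled GPR15- numbered 1, 5 and 6 and at 8.23, 7.86 and 8.28 on those labelled GPR15+, a difference of -0.65 ± 0.22 (SE; limma adjusted p = 0.773) that runs against the labels, so directions here rest on the labels. Where its probes lie relative to the reporter insertion was not given. Values were spread least on the arrays numbered 1, in both fractions (SD 1.63, against 1.74 to 1.87 on the other 4). Defining markers were present: all 10 measured T cell markers and 10 of 11 Treg markers lay above the median of all genes, with the T cell receptor chain Cd3d at a mean of 11.73 and 11.75 in the fractions and the Treg receptor Tnfrsf4 at 12.59 and 12.53; Foxp3 was not analysed here.

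**Figure D2:**
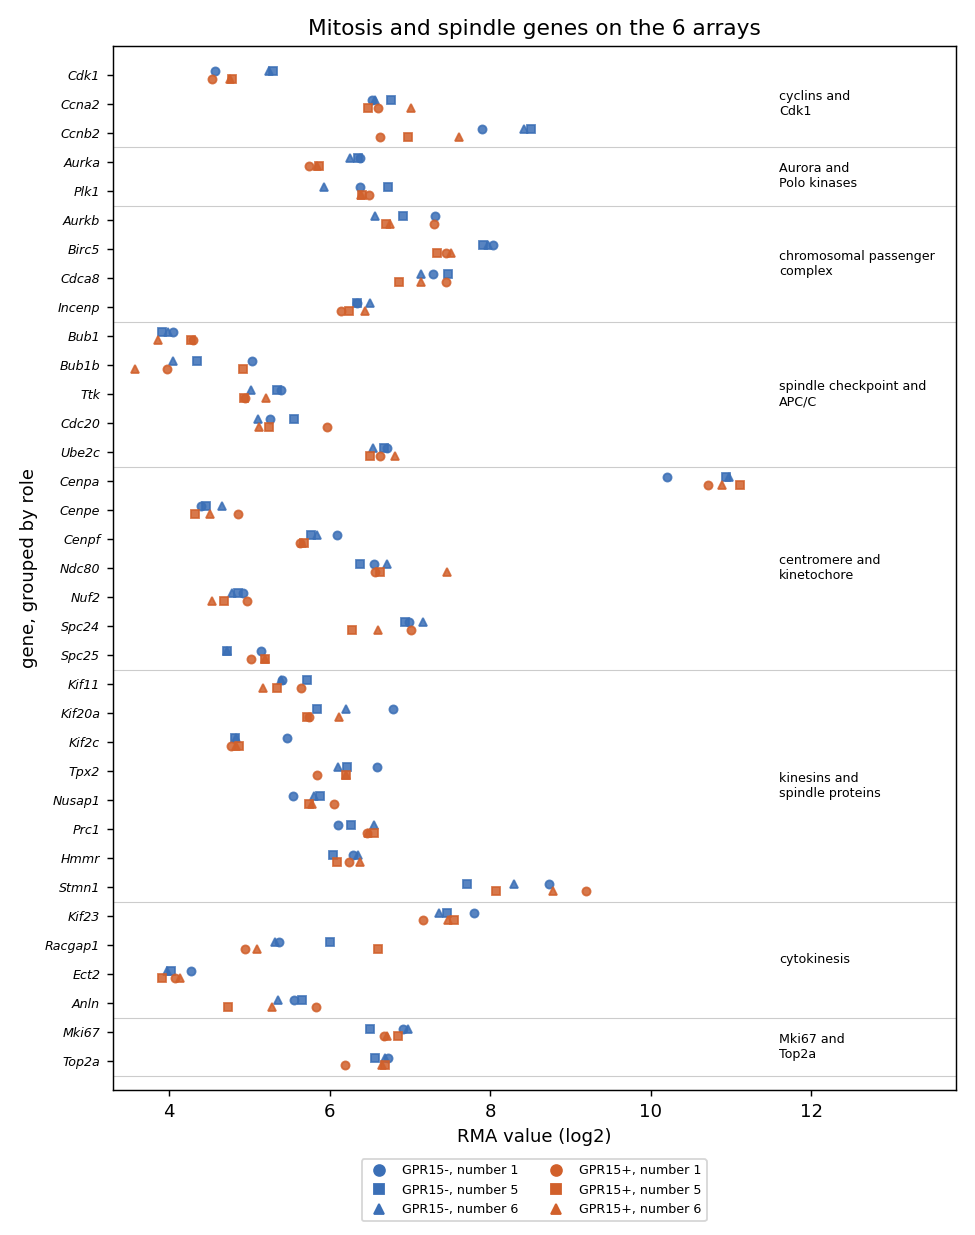
RMA values (log2, x axis) of the 35 members on the 6 arrays, 1 gene a row grouped by role, with colour for the labelled fraction and symbol for the title number. Colours mix in most rows and are apart in Ccnb2, Birc5, Aurka and Cenpf; a row's position on the axis also depends on its probes and does not rank genes by abundance.

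Among the cyclins and their kinase, Ccnb2 stood apart. It encodes cyclin B2, a partner of Cdk1 in mitosis. Ccnb2 lay at 7.90, 8.51 and 8.42 log2 units on the arrays labelled GPR15- numbered 1, 5 and 6, and at 6.63, 6.98 and 7.61 on those labelled GPR15+. The lowest GPR15- array was above the highest GPR15+ array, and the difference held in every number, at -1.27, -1.53 and -0.81. The means were 8.28 ± 0.33 and 7.07 ± 0.50 (SD, n = 3 each), a difference of -1.20 ± 0.29 (SE), or 2.31-fold lower. It ranked 67 of 19494 genes by unadjusted p (0.00315 in limma), with an adjusted p of 0.773, and of 0.176 with the replicate block. Without 1 array its difference lay between -1.47 and -0.98.

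The other genes of this step did not follow Ccnb2 in size. Cdk1, the kinase itself, lay at 4.57, 5.30 and 5.24 on arrays labelled GPR15- and at 4.53, 4.78 and 4.76 on those labelled GPR15+. Its difference of -0.35 ± 0.23 (SE) came from numbers 5 and 6 (-0.52 and -0.48), while number 1 gave -0.04. By mean level Cdk1 was dim, at percentile 15.1 of all genes, against 72.8 for Ccnb2. Other dim members were Bub1 (4.66), Ect2 (4.69), Bub1b (7.3), Cenpe (10.2), Nuf2 (14), Kif2c (16.3), Spc25 (17.4) and Ttk (19.5). Whether such genes gave signal above background is not known here, which limits the reading of their differences. Ccna2, the cyclin of S and G2 phase, differed by 0.07 ± 0.19 (SE), with numbers on both sides of 0 (0.07, -0.30 and 0.44). Ccnb1, the other main mitotic cyclin, was not analysed here.

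Of the mitotic kinases, Aurka was lower and Plk1 was not. Aurka encodes Aurora A, which matures centrosomes and builds the spindle poles. Its values were 6.38, 6.35 and 6.25 on arrays labelled GPR15-, and 5.74, 5.87 and 5.84 on those labelled GPR15+. Both fractions were tight (SD 0.07 in each), and the 3 numbers gave -0.64, -0.48 and -0.42. The difference was -0.51 ± 0.15 (SE), or 1.43-fold lower (limma adjusted p = 0.773). Plk1, the Polo kinase that acts with Aurora A at mitotic entry, differed by 0.08 ± 0.22 (SE), and its numbers lay at 0.11, -0.33 and 0.46. Tpx2, which activates Aurora A on spindle microtubules, differed by -0.22 ± 0.20 (SE), nearly all of it from number 1 (-0.74, against -0.02 and 0.11).

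The chromosomal passenger complex corrects faulty attachments and then moves to the midzone; its 4 genes all lay below 0, by very different amounts. Birc5, which encodes survivin, lay at 8.04, 7.91 and 7.97 on arrays labelled GPR15- and at 7.45, 7.34 and 7.51 on those labelled GPR15+. The fractions were far apart relative to their spread, with SDs of 0.06 and 0.09, and the numbers gave -0.59, -0.57 and -0.47. The difference was -0.54 ± 0.15 (SE), or 1.46-fold lower (limma adjusted p = 0.773). Its partners differed less: the kinase Aurkb by -0.02 ± 0.25 (SE), the targeting subunit Cdca8, or borealin, by -0.15 ± 0.20 (SE), and the scaffold Incenp by -0.12 ± 0.16 (SE). Aurkb varied more between numbers than between fractions, at 7.32, 6.91 and 6.57 on arrays labelled GPR15- and 7.30, 6.70 and 6.76 on those labelled GPR15+. Cdca8 lay at 7.29, 7.48 and 7.14 and at 7.45, 6.87 and 7.14, with number 5 alone clearly lower (-0.62). The sign of Aurkb turned under median centring and quantile normalization (0.05 and 0.03).

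**Figure D3:**
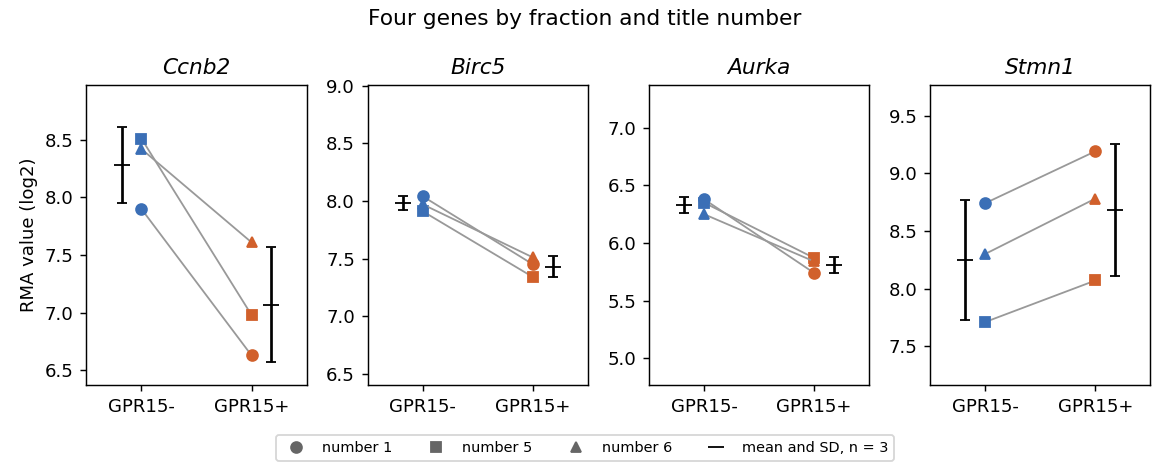
RMA values (log2, y axis) of Ccnb2, Birc5, Aurka and Stmn1 in both labelled fractions, with a line joining arrays of equal number and bars for mean and SD (n = 3). For Ccnb2, Birc5 and Aurka every line ends lower at GPR15+ and the fractions do not overlap, and for Stmn1 the lines run in parallel (0.45, 0.35 and 0.48) while the fractions overlap.

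The spindle checkpoint and APC/C genes showed no common direction. The checkpoint kinase Bub1 differed by 0.16 ± 0.18 (SE), at 4.05, 3.91 and 3.99 on arrays labelled GPR15- and 4.30, 4.28 and 3.86 on those labelled GPR15+. Bub1b, which encodes the APC/C inhibitor BubR1, differed by -0.32 ± 0.38 (SE) over numbers that disagreed widely (-1.05, 0.57 and -0.47). The kinase Ttk, or Mps1, which starts checkpoint signalling, differed by -0.22 ± 0.18 (SE). Cdc20, the activator that the checkpoint holds back, differed by 0.14 ± 0.26 (SE), led by number 1 (0.71). Ube2c, the APC/C's ubiquitin-conjugating enzyme, differed by 0.01 ± 0.16 (SE). All 5 genes had title numbers on both sides of 0.

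At the centromere, 4 of 7 genes lay above 0 and 3 below. Cenpa, the histone variant that marks centromeres, lay at 10.21, 10.94 and 10.98 on arrays labelled GPR15- and at 10.72, 11.11 and 10.89 on those labelled GPR15+, a difference of 0.20 ± 0.25 (SE). GPR15- number 1 was the lowest array, and the other 5 lay between 10.72 and 11.11. Cenpf, a kinetochore protein that accumulates in G2, lay at 6.09, 5.77 and 5.84 and at 5.63, 5.68 and 5.66. It was the fourth member without overlap, by a small margin, and differed by -0.25 ± 0.16 (SE; limma adjusted p = 0.780). The kinetochore motor Cenpe differed by 0.06 ± 0.19 (SE).

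The Ndc80 complex, 4 proteins that couple kinetochores to microtubules in equal parts, had subunit transcripts on both sides of 0. Ndc80 lay at 6.56, 6.38 and 6.72 on arrays labelled GPR15- and at 6.57, 6.63 and 7.46 on those labelled GPR15+, a difference of 0.33 ± 0.26 (SE). A single array, GPR15+ number 6, carried it, and without that array the difference was 0.04. Spc25 lay at 5.15, 4.72 and 4.72 and at 5.02, 5.20 and 5.20, a difference of 0.28 ± 0.18 (SE). Spc24, its direct partner, lay at 6.99, 6.94 and 7.17 and at 7.02, 6.28 and 6.61, a difference of -0.40 ± 0.22 (SE). In numbers 5 and 6 Spc25 lay at 0.48 and 0.48 and Spc24 at -0.65 and -0.57, while in number 1 they lay at -0.13 and 0.04. Nuf2, the partner of Ndc80, differed by -0.12 ± 0.17 (SE). By mean level Spc25 and Nuf2 were dim (percentiles 17.4 and 14 of all genes), while Spc24 and Ndc80 stood at 55 and 52.5. None of these 4 passed (limma adjusted p from 0.773 to 0.895).

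Kinesins and spindle proteins, with Tpx2 counted here, were also divided, 4 above 0 and 4 below. Stmn1 encodes stathmin, which destabilises microtubules and is switched off by phosphorylation in mitosis. It lay at 8.74, 7.71 and 8.30 on arrays labelled GPR15- and at 9.19, 8.07 and 8.78 on those labelled GPR15+. The fractions overlapped because the numbers differed from each other more than the fractions did, number 1 being highest and number 5 lowest in both. Within numbers the difference was even, at 0.45, 0.35 and 0.48. Over fractions it was 0.43 ± 0.35 (SE; limma adjusted p = 0.815), and with the replicate block the adjusted p was 0.371. Without 1 array the difference lay between 0.16 and 0.73, since each such fit keeps a title number in 1 fraction only.

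Kif20a, a midzone kinesin, lay at 6.79, 5.85 and 6.21 on arrays labelled GPR15- and at 5.75, 5.72 and 6.12 on those labelled GPR15+. Its difference of -0.42 ± 0.26 (SE) was mostly that of number 1 (-1.04, against -0.13 and -0.09). Kif2c, which dismantles microtubules at wrong attachments, had the same shape, with -0.69 in number 1 against 0.05 and -0.02. Kif11, the motor that pushes spindle poles apart, differed by -0.12 ± 0.19 (SE). The microtubule bundlers Prc1 and Nusap1 differed by 0.19 ± 0.18 and 0.12 ± 0.18 (SE). Prc1 lay at 6.10, 6.27 and 6.56 on arrays labelled GPR15- and at 6.47, 6.56 and 6.48 on those labelled GPR15+, the upper value of each fraction being the same. Hmmr, a spindle assembly factor, differed by 0.01 ± 0.17 (SE).

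The 4 genes of cytokinesis lay below 0, from -0.02 to -0.25. Kif23 and Racgap1 encode the subunits of centralspindlin, which organises the midzone. Kif23 lay at 7.80, 7.46 and 7.36 on arrays labelled GPR15- and at 7.17, 7.55 and 7.48 on those labelled GPR15+, a difference of -0.14 ± 0.19 (SE). Racgap1 differed by -0.02 ± 0.43 (SE) and had the widest spread of all members among arrays labelled GPR15+ (SD 0.91), because number 5 lay at 6.60 and numbers 1 and 6 at 4.95 and 5.10. Number 5 was also the highest of the arrays labelled GPR15- for Racgap1, at 6.00. Ect2, the exchange factor that centralspindlin recruits, differed by -0.06 ± 0.17 (SE). Anln, or anillin, which scaffolds the contractile ring, differed by -0.25 ± 0.28 (SE), with number 5 at -0.92.

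The proliferation antigen Mki67 and the topoisomerase Top2a, both widely used markers of dividing cells, overlapped between the fractions. Mki67 lay at 6.92, 6.50 and 6.98 on arrays labelled GPR15- and at 6.68, 6.85 and 6.72 on those labelled GPR15+. The GPR15+ values lay inside the range of the GPR15- values, and the difference was -0.05 ± 0.19 (SE), with a 95% interval of -0.48 to 0.38. Top2a differed by -0.15 ± 0.19 (SE), with a 95% interval of -0.59 to 0.29, and its numbers lay at -0.54, 0.12 and -0.02. These intervals leave room for differences of moderate size in either direction.

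**Figure D4:**
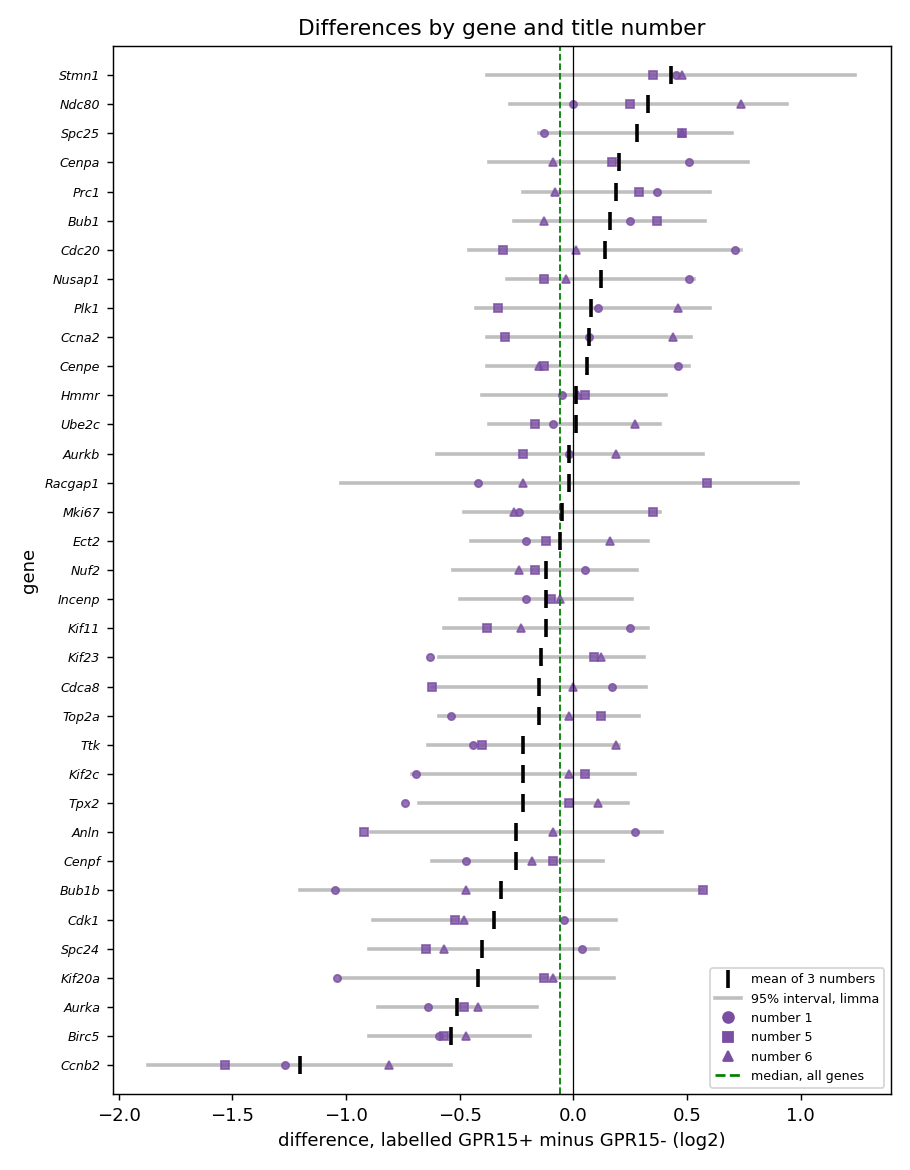
Difference between arrays labelled GPR15+ and GPR15- (log2, x axis) for each of the 35 members, ordered by size, with the mean (black tick), limma's 95% interval (grey, unadjusted), the 3 title numbers (symbols) and the median of all genes (dashed, -0.06). The intervals of Ccnb2, Birc5 and Aurka lie below 0 and those of the other members span it; number 1 gives the outlying symbol in many rows.

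The title numbers disagreed in sign about 26 of 35 members, as they did about most genes on the array (12272 of 19494). The other 9 members had 1 sign in all numbers. Ccnb2, Birc5, Aurka, Cdk1, Cenpf, Kif20a and Incenp lay below 0 (20%, against 23.6% of all genes). Stmn1 and Ndc80 lay above (5.71%, against 13.4%), Ndc80 at 0.00 after rounding in number 1. The median over members was -0.05, -0.13 and -0.06 in numbers 1, 5 and 6, against -0.03, -0.08 and -0.06 over all genes. Below 0 were 20 members in number 1 (57.1%, background 53.1%), 22 in number 5 (62.9%, background 58.1%) and 21 in number 6 (60%, background 57.4%). Members moved most in number 1, with a median absolute difference of 0.37 against 0.24 over all genes, although its arrays had the narrowest spread; in numbers 5 and 6 the values were 0.30 and 0.19 against 0.29 and 0.24. GPR15- number 1 was the highest of the 6 arrays in 12 members (34.3%, against 23.6% of all genes), among them Kif20a, Kif2c, Kif23, Tpx2 and Bub1b. Without that array the members' median was -0.04, and without both arrays numbered 1 it was 0.02. Ccnb2, Birc5 and Aurka kept differences of -1.17, -0.52 and -0.45 without both arrays numbered 1.

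The members were also set out by their promoter letters, with no test and without the 7 members that had no promoter in the table. Of the 23 members with TTTGAA, 15 lay below 0, with a median of -0.12 and a range from -1.20 (Ccnb2) to 0.33 (Ndc80). Of the 5 without it, 2 lay below 0, with a median of 0.06 and a range from -0.54 (Birc5) to 0.16 (Bub1). Of the 4 members whose fractions did not overlap, Ccnb2, Aurka and Cenpf held TTTGAA and Birc5 did not.

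Further genes of the same pathway lay in both directions. Of 79 other mitosis genes measured, 32 lay above 0 and 47 below, with a median of -0.05, and 0 passed over all genes in either direction. At an unadjusted p under 0.05 limma gave 3 of them higher (3.8%, background 2.79%) and 2 lower (2.53%, background 3.44%). With the replicate block 7 were higher (8.86%, background 6.14%) and 4 lower (5.06%, background 6.23%). The fractions did not overlap in 5 higher (6.33%, background 4.12%) and 5 lower (6.33%, background 9.17%). The smallest unadjusted p belonged to Smc2, a condensin subunit, at 0.49 ± 0.17 (SE), and to the spindle proteins Psrc1 at -0.43 ± 0.17 (SE) and Tacc3 at -0.57 ± 0.23 (SE). Tacc3, which Aurora A loads onto the spindle, lay at 9.21, 8.42 and 8.80 on arrays labelled GPR15- and at 8.39, 8.25 and 8.06 on those labelled GPR15+. Cenpq, of the inner kinetochore, differed by 0.65 ± 0.26 (SE). All had a limma adjusted p of 0.773.

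DNA replication genes precede mitosis in the cycle, and 25 of 44 lay above 0, with a median of 0.06 and none called. The primase subunits Prim2 and Prim1 differed by 1.37 ± 0.30 and 0.76 ± 0.42 (SE), the polymerase Pole by 0.47 ± 0.26 (SE), and the helicase cofactor Gins1 by -0.76 ± 0.18 (SE). Prim2 lay at 6.68, 5.66 and 6.37 on arrays labelled GPR15- and at 7.32, 7.98 and 7.51 on those labelled GPR15+, with no overlap (limma adjusted p = 0.773). Of 26 genes that brake the cycle, 19 lay above 0, with a median of 0.19, and none was called. That median was 0.11 after quantile normalization and 0.03 without GPR15+ number 5. The brakes were bright, with a median level at percentile 84.9 of all genes, against 40.6 for the members and 35.7 for other mitosis genes. Other bright lists also had medians above 0, T cell markers (percentile 99.1) at 0.14 and Treg markers (percentile 94.9) at 0.10. The part of level in the brakes' median was not tested. The antiproliferative genes Btg2 and Btg1 differed by 0.72 ± 0.28 and 0.39 ± 0.23 (SE), the cyclin G gene Ccng2 by 0.50 ± 0.29 (SE) and the retinoblastoma gene Rb1 by 0.59 ± 0.33 (SE). For Rb1 the 3 numbers gave 0.38, 0.78 and 0.61, and for Btg2 -0.13, 0.84 and 1.45.

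**Figure D5:**
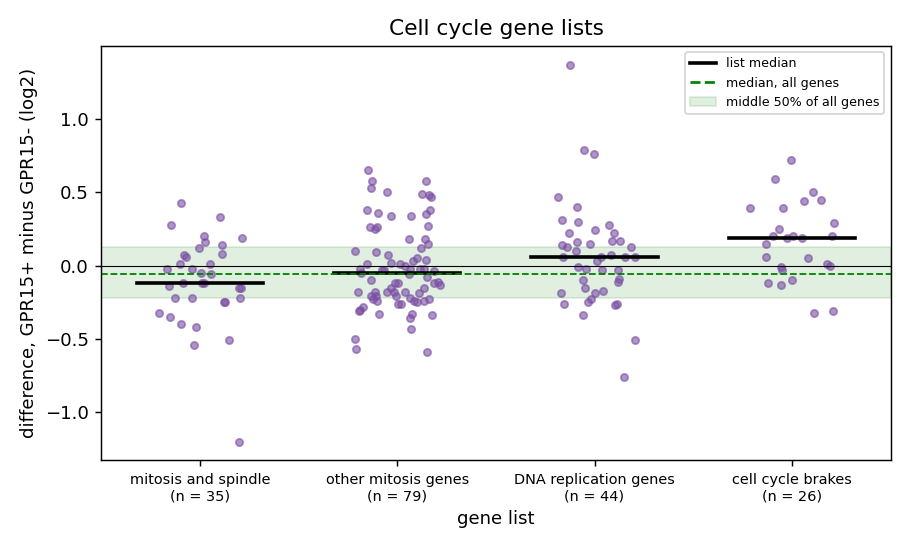
Difference between arrays labelled GPR15+ and GPR15- (log2, y axis) for each gene of 4 lists, 1 point a gene, with list medians (black), the median of all genes (dashed) and the middle 50% of all genes (band). The mitosis members (median -0.12) and the other mitosis genes (-0.05) centre near all genes (-0.06), and Ccnb2 lies lowest at -1.20. The brakes lie higher (0.19) and are brighter genes (median level at percentile 84.9, against 40.6 for the members).

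Markers of other cells that could divide in the tumour were set beside these values. Of 17 epithelial markers, 13 lay below 0, with a median of -0.21; their summed level on the linear scale ranged from 1668 to 1809 on arrays labelled GPR15- and from 1379 to 1752 on those labelled GPR15+. The stem cell marker Lgr5 differed by -0.25 ± 0.19 (SE) and Lgals4 by 0.08 ± 0.21 (SE). The fractions did not overlap in 3 epithelial markers, all lower (17.6%, background 9.17%): Vil1 (-0.59), Phgr1 (-0.51) and Ascl2 (-0.48). Of 11 B and plasma cell markers, 7 lay below 0 (median -0.19), with sums from 1140 to 1199 and from 938 to 1071. Bcl6 and Fcmr differed by 0.04 ± 0.23 and -0.27 ± 0.19 (SE), and the antibody joining chain gene Jchain lay lowest, at -1.13 ± 0.55 (SE). The fractions did not overlap in 3 of these markers, all lower (27.3%, background 9.17%): Mzb1 (-0.59), Cd79a (-0.36) and Mef2b (-0.36). Of 13 myeloid markers, 12 lay below 0 (median -0.21), with sums from 965 to 1145 and from 934 to 1348, Cybb being the one above (1.17) and H2-Aa lying at -0.31. CD8 T and NK cell markers had a median of -0.10 over 10 genes, with sums from 1026 to 1314 and from 907 to 1200, Gzma at -1.40 and Nkg7 at 0.56. Stromal markers had a median of -0.06 over 10 genes, with sums from 1084 to 1264 and from 1168 to 1262, Col1a1 at -0.23 and Pecam1 at 0.45. The fractions did not overlap in 1 myeloid marker, lower (7.69%), and in 1 stromal marker, lower (10%, background 9.17%). Among CD8 T and NK cell markers they did not overlap in 1 lower (10%) and in 1 higher (10%, background 4.12%). No marker is at 0 on this scale, which has no detection calls. The part of such cells in the lower values of Ccnb2, Birc5 and Aurka was not tested.

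The lower values of these 3 members kept their direction under each alternative that included them (Aurka was among the genes left out as dim) and passed under 1, array weights. With array weights limma called Ccnb2 (-0.85), Birc5 (-0.47), Aurka (-0.47) and Ndc80 (0.79), at adjusted p of 0.0338, 0.0357, 0.0338 and 0.0426. These 4 of 35 members (11.4%) matched the background of the same fit, which called 2174 of 19494 genes (11.2%). That estimate of the weights did not converge and gave GPR15+ number 6 a weight of 6.56 and GPR15+ number 1 one of 0.191; with weights estimated gene by gene, chosen after seeing the data, 0 members were called and the adjusted p of the same 4 lay between 0.110 and 0.182.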

How the data were processed

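Biotin-labelled RNA was hybridised to 1-colour Affymetrix arrays, per the labels' protocols. The authors deposited log2 values made with RMA (background correction, quantile normalization and summary of probes), per the submitters' processing notes; neither its version nor detection calls are known here. Of 22142 rows, 19527 had 1 gene symbol. Of several rows of a gene (33 genes, no member) the brightest was kept, which left 19494 genes. Differences (labelled GPR15+ minus GPR15-) were fitted without a block by limma 3.58.1 under R 4.3.3, using lmFit and eBayes, 2-sided, with Benjamini-Hochberg adjustment and a threshold of 0.05, after the script was tested on simulated data. Deviations of equal title numbers from the fraction means correlated at 0.567, 0.381 and 0.319 (numbers 1, 5 and 6). Number 1 crossed with the other numbers gave -0.507 to -0.383, and crossed numbers 5 and 6 gave 0.315 and 0.213. Deviations from a mean add up to 0, so these correlations depend on each other. They set the arrays numbered 1 apart and do not settle whether numbers 5 and 6 pair samples. The labels do not say whether numbers are animals or pools, so p-values reflect only how these samples vary. With 3 arrays a fraction, precision is limited by their number.

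The members and lists were chosen with earlier results of these data known. Array values were planned for the 10 members of highest mean and the 6 of smallest p in each direction; other members' array values were picked after they were seen. Of each other pathway list the 4 genes of smallest p were named, of each marker list the 2 of highest mean, besides Gpr15. Jchain and the markers without overlap were picked after their values were seen. The alternatives were median centring, quantile normalization, leaving out the 40% dimmest genes, the mean of rows, an intensity trend with a robust prior, array weights, the replicate block, and leaving out single arrays or both numbered 1. Promoters came from RefSeq (GRCm38.p6).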

Additional observations from a re-analysis of the deposited data

How the results depend on the processing

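The 3 arrays a fraction and the absence of detection calls limit all values. No member was called under any alternative except array weights, which called 4 members (11.4%) and 2174 genes (11.2%); gene-by-gene weights, added after seeing the data, called 2 genes and 0 members. Of 508 member values, 453 kept sign and side of the threshold, 51 turned sign and 4 passed; 16 members kept their sign throughout. Causes were not tested. The replicate block changed no call over all genes and gave 1 member higher at an unadjusted p under 0.05.

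The members' median (-0.12) was -0.05 with centring, -0.01 with quantile normalization, -0.03 without dim genes (8 of 18 members above 0), -0.04 with array weights, -0.05 with gene-by-gene weights and 0.02 without both arrays numbered 1. The other mitosis genes' median was 0.02 with centring, 0.00 with quantile normalization and -0.03 with array weights. The DNA replication median was 0.13 with centring, 0.13 without dim genes and 0.11 without both arrays numbered 1. The median of all genes was 0.01 with centring, -0.02 with quantile normalization and -0.02 without dim genes. At an unadjusted p under 0.05, array weights gave 3 members higher (8.57%) and 7 lower (20%), against 12.9% and 20.7% of all genes. Gene-by-gene weights gave 2 (5.71%) and 5 (14.3%), against 8.76% and 13.5%, and leaving out both arrays numbered 1 gave 1 (2.86%) and 5 (14.3%), against 9.59% and 11.4%.

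Leaving out 1 array gave 3 to 5 members lower at an unadjusted p under 0.05 (limma). Without GPR15+ 1 there were 5 (14.3%, against 12.8% of all genes). Without GPR15- 1 or GPR15- 5 there were 4 (11.4%, against 1.83% and 2.12%). Without GPR15- 6, GPR15+ 5 or GPR15+ 6 there were 3 (8.57%, against 1.81%, 1.62% and 1.6%). Members higher numbered 0 in each of these fits, against 1.82% to 9.54% of all genes. Leaving out 1 array gave medians from -0.14 to -0.04 for members, -0.08 to -0.01 for other mitosis genes, 0.01 to 0.14 for DNA replication and -0.11 to -0.04 for all genes. Signs turned for Mki67 (-0.20 to 0.04), Top2a (-0.23 to 0.01), Ccna2 (-0.09 to 0.18), Aurkb (-0.21 to 0.18), Plk1 (-0.13 to 0.28), Cenpa (-0.05 to 0.33), Cenpe (-0.09 to 0.18), Ube2c (-0.07 to 0.07), Cdc20 (-0.13 to 0.30), Racgap1 (-0.54 to 0.29), Ect2 (-0.11 to 0.04), Anln (-0.52 to 0.02) and Hmmr (-0.09 to 0.08).

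Signs also turned with centring for Mki67 (0.02), Aurkb (0.05), Racgap1 (0.05) and Ect2 (0.01), and with quantile normalization for Aurkb (0.03), Racgap1 (0.06) and Ect2 (0.03). With array weights they turned for Top2a (0.00), Bub1 (-0.06), Cenpe (-0.04), Kif23 (0.02), Cdc20 (-0.14), Nusap1 (-0.01) and Ect2 (0.08). With gene-by-gene weights they turned for Cenpe (-0.06), Kif23 (0.01), Cdc20 (-0.10), Nusap1 (-0.01) and Ect2 (0.03). Without both arrays numbered 1 they turned for Mki67 (0.05), Top2a (0.05), Bub1b (0.05), Cenpe (-0.14), Kif23 (0.11), Kif2c (0.02), Tpx2 (0.04), Cdc20 (-0.15), Nusap1 (-0.08), Racgap1 (0.19) and Ect2 (0.02).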

Other observations

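Within the 79 other mitosis genes, 2 groups of the chromosome machinery lay mostly above 0 on arrays labelled GPR15+. These groups were picked after their values were seen, and none of their genes passed over all genes with limma. Of the whole list of 79, 47 genes lay below 0, as did 59.2% of all genes. Of 11 inner kinetochore (CENP) genes, 8 lay above 0, with a median of 0.34 and medians of 0.08, 0.21 and 0.33 in numbers 1, 5 and 6. Cenpt, which links the centromere to the Ndc80 complex, differed by 0.16, 0.49 and 0.85, and Cenpp by 0.40, 0.06 and 0.59; these were the 2 of 11 whose fractions did not overlap, both higher (4.12% of all genes did so). Of 8 condensin genes, which compact mitotic chromosomes, 5 lay above 0, with a median of 0.33 and medians of 0.08, 0.33 and 0.35 in the numbers. The fractions did not overlap in 2 of the 8, both higher. Smc2 differed by 0.53, 0.53 and 0.42, and its partner Smc4 by -0.22, 0.92 and 0.89.

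The CHR letters were less frequent outside the members. TTTGAA was present in the promoters of 35 of 67 other mitosis genes (52.2%), in 9 of 36 DNA replication genes (25%) and in 4 of 21 brakes (19%), against 20.2% of all genes.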
